A study of Rattus norvegicus with 8 samples.

Results

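The genes described here are 10 genes of bone-forming osteoblasts, of osteocytes, and of bone-resorbing osteoclasts, chosen by name (*Sp7*, *Alpl*, *Ibsp*, *Bglap*, *Dmp1*, *Spp1*, *Mmp13*, *Acp5*, *Ctsk*, and *Mmp9*), out of 32883 genes in the count table, 21046 of which had at least 1 read. All 10 matched a single Ensembl gene. They were measured by sequencing of polyadenylate mRNA from right Achilles tendon tissue of 8 wild-type male Sprague-Dawley rats. In the running group, 4 rats ran uphill for 1 hour on a treadmill, urged by airflow and mild electric stimuli, and were killed 12 hours later (12 h p.r.), and 4 naïve control rats (NC) rested in cages and were killed at the same time. Each rat gave 1 library, and the replicate numbers name different rats in each group.

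The tissue is a tendon, and its defining genes were present, since *Col1a1*, the main collagen chain gene of tendon and bone, was at 11092 CPM or more in every rat and *Tnmd*, a tenocyte membrane protein gene, at 224 CPM or more. CPM are read counts per 1000000 reads, with library sizes corrected by the TMM factors of edgeR. The reads on genes totaled between 7350509 and 10648648 in the running rats and between 8385779 and 12951397 in the NC rats. Before the results, 3 rats have to be set apart. NC replicate 3 and 12 h p.r. replicate 1 stood far above the other rats in most of the genes described below, and 12 h p.r. replicate 3 held the most skeletal muscle RNA, with a summed level of 56658.5 CPM over 8 muscle markers (2064 to 10517 CPM elsewhere), and the least RNA of 8 tenocyte markers (16273 CPM, and 27363 CPM or more elsewhere).

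Bone is built by osteoblasts, which secrete a collagen matrix and the acidic proteins that bind and order its mineral, and some of these cells become osteocytes buried in that matrix. Osteoclasts are large cells of the macrophage lineage that dissolve the mineral with acid and digest the matrix with proteases. A tendon is not normally a mineralized tissue along its length, but it joins bone through a zone of fibrocartilage and mineralized fibrocartilage, and some of these genes, such as *Spp1*, *Ctsk*, and *Mmp13*, are also used by fibroblasts, macrophages, or chondrocytes. In bulk tissue, fewer cells of a type and less RNA per cell cannot be told apart.

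Promoters of 8 of the 10 genes could be matched by symbol in the RefSeq promoter table of the rat build GRCr8, a later build than the one the reads were counted on. Each promoter runs from 250 bases before the start of the gene to 50 bases after it. They were searched on both strands for TGTGGT, the core that RUNX factors of osteoblasts and chondrocytes bind, for TGANTCA, the AP-1 site, and for GGAAAA, the core of NFAT sites. The RUNX core was in 2 of the 8 genes, *Bglap* and *Mmp13*, and in 17.3% of 33469 rat promoters of this length. The AP-1 site was in *Mmp13* (7.33% of all promoters), and the NFAT core in *Mmp13* and *Ctsk* (24.7% of all promoters). The *Bglap* and *Mmp13* promoters are shown because they are the 2 with a RUNX core among genes that were near 0 in most rats and high in the same 2 rats, and their levels are given below. The capitals mark the RUNX core (ACCACA as read on this strand), 118 bases before the start in *Bglap* and 149 in *Mmp13*, and the AP-1 site 66 bases before the start of *Mmp13*, and the positions are chr2:176137269-176137568 on the minus strand and chr8:12782579-12782878 on the plus strand of GRCr8.
Bglap: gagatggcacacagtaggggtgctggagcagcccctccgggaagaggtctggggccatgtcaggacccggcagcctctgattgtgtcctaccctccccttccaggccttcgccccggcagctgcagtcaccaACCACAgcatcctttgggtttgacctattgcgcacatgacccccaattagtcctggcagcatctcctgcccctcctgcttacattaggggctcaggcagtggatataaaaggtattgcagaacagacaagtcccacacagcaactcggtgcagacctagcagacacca
Mmp13: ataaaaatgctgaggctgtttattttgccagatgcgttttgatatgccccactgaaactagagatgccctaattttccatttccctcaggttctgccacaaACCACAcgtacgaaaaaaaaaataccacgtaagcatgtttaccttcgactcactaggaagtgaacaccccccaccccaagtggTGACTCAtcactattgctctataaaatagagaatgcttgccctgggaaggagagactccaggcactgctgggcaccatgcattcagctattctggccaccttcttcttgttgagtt
A match of these letters is a description of the sequence and not evidence that a factor was bound there.

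The first gene of the osteoblast series is *Sp7* (ENSRNOG00000014082), which encodes osterix, a transcription factor needed for osteoblast formation. Its level was 2.07, 0.527, 0, and 0.751 CPM in 12 h p.r. replicates 1 to 4 and 0, 0, 2.34, and 0.0850 CPM in NC replicates 1 to 4. These were 60 reads over the 8 rats, of which 31 came from NC replicate 3 and 16 from 12 h p.r. replicate 1. The 3 rats without a read allow up to 3 counts, that is 0.357 CPM in the running rat (replicate 3), and 0.240 and 0.368 CPM in NC replicates 1 and 2, and these limits cover counting error only.

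*Alpl* (ENSRNOG00000013954), the tissue-nonspecific alkaline phosphatase that frees phosphate for mineral, was at 13.2, 4.87, 4.88, and 6.57 CPM in the running rats and at 3.69, 6.62, 41.2, and 4.42 CPM in the NC rats. Outside NC replicate 3 and 12 h p.r. replicate 1 it was found at a low level in every rat, between 3.69 and 6.62 CPM. *Ibsp* (ENSRNOG00000002158), bone sialoprotein, an acidic protein that nucleates mineral, was at 62.5, 1.58, 0.238, and 5.16 CPM after running and at 4.01, 6.38, 197, and 1.95 CPM in the NC group. NC replicate 3 was thus 30.9 times the next NC rat, and 12 h p.r. replicate 1 was 12.1 times the next running rat.

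*Bglap* (ENSRNOG00000019607), osteocalcin, the calcium-binding protein of mature osteoblasts, had the widest separation. It was at 148, 0.790, 0.238, and 0.188 CPM in the running rats and at 0.321, 0.491, 300.04, and 0.340 CPM in the NC rats. The 6 rats with low values held between 2 and 6 reads each, whereas NC replicate 3 held 3973 reads and 12 h p.r. replicate 1 held 1144 reads. In NC replicate 3 *Bglap* was the gene with rank 135 by FPKM among all genes, and in 12 h p.r. replicate 1 it had rank 272.

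Of the matrix proteins of osteocytes, *Dmp1* (ENSRNOG00000002167), dentin matrix protein 1, was at 63.03, 3.95, 4.28, and 4.32 CPM in the running rats and at 7.37, 12.3, 307, and 12.2 CPM in the NC rats. The 3 lower running rats lay close together and below all 4 NC rats, while 12 h p.r. replicate 1 lay above 3 of the NC rats. *Spp1* (ENSRNOG00000043451), osteopontin, which binds mineral and cell integrins and is also made by macrophages, had another pattern, with 504, 318, 21.7, and 493 CPM after running and 63.6, 109, 1377, and 55.7 CPM in the NC group. Of the running rats, 3 were above 3 of the NC rats, and the running rat with the lowest value was replicate 3, the library with the most muscle RNA. *Ibsp*, *Dmp1*, and *Spp1* lie in 1 cluster of rat chromosome 14, with *Mepe* as the only other protein-coding gene between them in the RefSeq table.

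*Mmp13* (ENSRNOG00000008478) encodes collagenase 3, which cleaves the collagen triple helix and is made by osteoblasts, hypertrophic chondrocytes, and stimulated fibroblasts. Its level was 50.7, 0.659, 0, and 0.0939 CPM in the running rats and 0, 0, 111, and 0 CPM in the NC rats. Apart from replicate 3, no NC rat had a read of *Mmp13*, which allows up to 0.240, 0.368, and 0.255 CPM in NC replicates 1, 2, and 4. Of its 1868 reads, 1470 came from NC replicate 3 and 392 from 12 h p.r. replicate 1.

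Among the osteoclast genes, *Acp5* (ENSRNOG00000046261), tartrate-resistant acid phosphatase, was at 154, 19.2, 33.4, and 31.8 CPM in the running rats and at 43.8, 34.1, 165, and 30.8 CPM in the NC rats. *Ctsk* (ENSRNOG00000021155), cathepsin K, the main collagen-degrading protease of osteoclasts, was at 461, 219, 114, and 194 CPM and at 272, 158, 634, and 213 CPM. Both genes were well expressed in every rat, and the highest rat of a group was between 2.11 and 4.59 times the next one. *Mmp9* (ENSRNOG00000017539), gelatinase B, which digests denatured collagen, was at 86.6, 1.05, 0.238, and 1.13 CPM after running and at 0, 1.10, 110, and 0.425 CPM in the NC group, and so was near 0 in the same 6 rats in which *Bglap* and *Mmp13* were near 0.

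**Figure D1:**
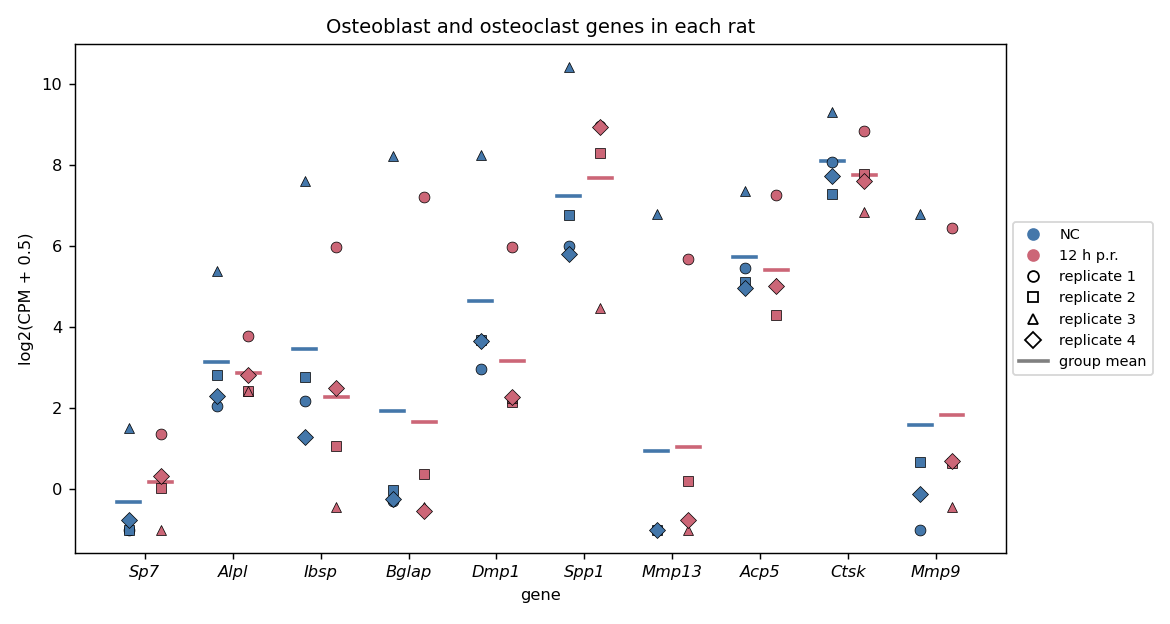
Level of each gene in each rat, as log2(CPM + 0.5), with NC rats in blue, 12 h p.r. rats in red, a marker shape for each replicate number, and a bar for each group mean (n = 4 rats). For all 10 genes NC replicate 3 is the highest point and 12 h p.r. replicate 1 the next, while the other 6 rats lie lower, from 0 CPM for *Mmp13* up to 493 CPM for *Spp1*.

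For 10 of the 10 genes NC replicate 3 was the highest of the 8 rats and 12 h p.r. replicate 1 the second highest, as the plot of the levels by rat shows. The same 2 rats were the highest pair, in either order, for 671 of the 21046 genes with a read (3.19%). NC replicate 3 was the highest rat for 7.67% of the 13968 genes with a mean of at least 10 counts, and 12 h p.r. replicate 1 for 13.01% of them. The pair holds 1 rat of each group, and the genes were chosen with this pattern already known from the data, so the count of 10 is a description.

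The FPKM of the authors, which divide by gene length, allow the genes to be ordered. By the median over the 8 rats, *Ctsk* (152 FPKM) and *Spp1* (140 FPKM) came first, and their ranges, 80.3 to 446 and 14.2 to 902 FPKM, overlapped widely. *Acp5* followed with a median of 21.7 FPKM (range, 12.3 to 106). *Dmp1*, *Ibsp*, and *Alpl*, with medians of 3.58, 2.37, and 2.34 FPKM, could not be separated, because their ranges overlapped as well. *Bglap* had a median of 0.850 FPKM and reached 613 FPKM, *Mmp9* one of 0.341 FPKM, *Sp7* one of 0.187 FPKM, and *Mmp13* one of 0.0179 FPKM, with *Mmp13* listed at 0 in 4 rats, *Sp7* in 3, and *Mmp9* in 1. In NC replicate 3 the order was different, since *Spp1* (902 FPKM) and *Bglap* (613 FPKM) stood above *Ctsk* (446 FPKM), and *Dmp1* (112 FPKM) and *Ibsp* (101 FPKM) were near *Acp5* (106 FPKM).

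The spread between rats of the same group was large for these genes. As a measure, the SD of log2(CPM + 0.5) within each group was pooled over both groups, and its median over the 13968 genes with a mean of at least 10 counts was 0.23, with 95% of genes below 0.82 and 99% below 1.54. Of the 10 genes, 9 had this many counts (all but *Sp7*), and all 9 were above the 95% mark and 6 above the 99% mark. *Bglap* had the largest pooled SD of all these genes, 3.98 (3.73 among the running rats and 4.21 among the NC rats). *Mmp13* had rank 5 (SD, 3.54), *Mmp9* rank 7 (SD, 3.33), and *Ibsp* rank 12 (SD, 2.79), followed by *Dmp1* (rank 38, SD 2.18) and *Spp1* (rank 39, SD 2.16). The smallest values were those of *Acp5* (1.20), *Alpl* (1.17), and *Ctsk* (0.84), genes with a measurable level in every rat. *Bglap* and *Mmp13* held at most 6 reads in each of the lower rats, and *Mmp9* at most 12. These 3 genes reached a mean of 10 counts only through 1 high rat per group, which fixed a large SD in advance. Their ranks are therefore no test. The pattern was known when the 10 genes were picked, so the counts above the marks describe them only.

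**Figure D2:**
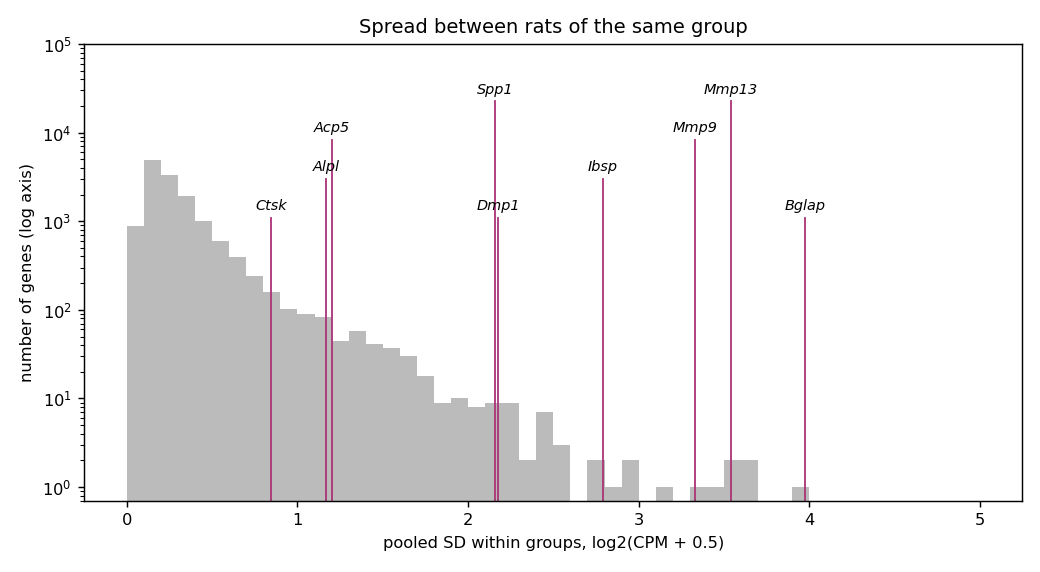
Histogram of the pooled SD within groups of log2(CPM + 0.5) for 13968 genes (number of genes on a log axis), with a line for each of the 9 genes that had a mean of at least 10 counts. *Ctsk*, at 0.84, lies just past the value that 95% of genes stay below, 0.82, and *Bglap*, at 3.98, lies at the right end.

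Without NC replicate 3 and 12 h p.r. replicate 1, the pooled SD came nearer to that of other genes. Its median over the same genes was 0.23 with these 6 rats and 95% of genes were below 0.83. *Dmp1* was then at 0.29, *Acp5* at 0.36, *Alpl* at 0.32, and *Ctsk* at 0.45. *Bglap*, at 0.37, and *Mmp13*, at 0.45, had 0 to 6 reads in each of these rats, so the pseudocount of 0.5 holds their SD down and it cannot be compared with that of other genes. Leaving out the highest rat of each group favors a smaller spread, so these values are a description. Only *Spp1* (1.75) and *Ibsp* (1.17) of the 9 genes stayed above the 95% mark, and in both of them 12 h p.r. replicate 3 was the lowest rat.

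In the comparison of the groups, 0 of the 7 genes that passed the filter on low counts differed by edgeR's quasi-likelihood test at a Benjamini-Hochberg adjusted p value under 0.05, where 0.00718% of the 13937 genes tested did so (1 gene). At an unadjusted p value under 0.05 the count was also 0 of 7, against 9.51% of all genes tested. *Bglap*, *Sp7*, and *Mmp13* had enough reads in only 2 rats and were removed by this filter, so their values come from a fit of all 21046 genes with a read. The fitted log2 fold change of 12 h p.r. over NC was below 0 for 9 of the 10 genes and above 0 for *Sp7*, and its median was -0.37 over the 7 tested genes and 0.02 over all genes tested. The log2 fold changes were -2.18 for *Dmp1* (SE 1.42, edgeR adjusted p = 0.665), -1.61 for *Ibsp* (SE 1.64, edgeR adjusted p = 0.783), and -0.93 for *Alpl* (SE 0.78, edgeR adjusted p = 0.736). *Ctsk* was at -0.37 (SE 0.51), *Mmp9* at -0.35 (SE 1.93), *Spp1* at -0.26 (SE 1.16), and *Acp5* at -0.21 (SE 0.75). In the fit without the filter, *Mmp13* was at -1.16 (SE 1.92), *Bglap* at -1.05 (SE 2.02), and *Sp7* at 0.35 (SE 1.25), with edgeR adjusted p values of 0.865, 0.891, and 0.952. With standard errors of this size, a severalfold change of *Bglap* or *Mmp13* was not detectable with these rats.

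The exact permutation test of the mean log2(CPM + 0.5), 2-sided over the 70 splits of the 8 rats, gave p values between 0.457 (*Dmp1*) and 0.857 (*Alpl*), where the smallest p that 4 rats against 4 allow is 0.0286. On this scale *Mmp13*, *Mmp9*, and *Spp1* had a mean slightly above that of the NC group (differences of 0.08, 0.25, and 0.42), whereas the edgeR fold change, which follows the mean of the counts, was below 0. The groups overlapped in all 10 genes, while they did not overlap in 6.06% of the genes tested. DESeq2, fitted to the same counts, called 0 of the 10 genes at an adjusted p under 0.05 (0.699% of all genes), but it gave no p value for 8 of the 10, since its rule on extreme counts (Cook's distance) withholds the p value of a gene that 1 library dominates. Among the genes that passed the filter these were 6 of 7, against 0.524% of all genes tested. *Ctsk* (DESeq2 adjusted p = 0.922) and *Sp7* (DESeq2 adjusted p = 0.974) were the genes with a value.

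The direction of the difference could turn when 1 rat was left out. Without NC replicate 3, the fitted log2 fold change was above 0 for all 10 genes, for example 6.58 for *Bglap* (SE 2.42, edgeR adjusted p = 0.717), 5.57 for *Mmp9* (SE 2.30, edgeR adjusted p = 0.525), and 2.13 for *Spp1* (SE 0.87, edgeR adjusted p = 0.525). Without 12 h p.r. replicate 1, it was below 0 for all 10 genes, for example -7.60 for *Bglap* (SE 2.82), -4.41 for *Ibsp* (SE 1.87), and -4.34 for *Dmp1* (SE 1.54), with edgeR adjusted p values of 0.738, 0.616, and 0.569. *Mmp13* moved from 9.92 to -6.87, but the 9.92 was fitted against NC rats that were all at 0 reads and has no meaning as a size. No adjusted p value was under 0.05 for any of the 10 genes in either fit. At an unadjusted edgeR p under 0.05 were 5 of the 10 genes without NC replicate 3 (*Bglap*, *Sp7*, *Mmp13*, *Mmp9*, and *Spp1*). The count was 4 without 12 h p.r. replicate 1 (*Bglap*, *Ibsp*, *Dmp1*, and *Mmp13*). *Bglap*, *Sp7*, and *Mmp13* were below the filter, so their p values came from fits of all genes with a read. Of the 7 genes that passed the filter, 2 had such a p value in each fit, against 9.31% and 8.07% of all genes tested. Each of these fits keeps 1 of the 2 high rats in 1 group and removes the other, so the direction in them follows from which rat was left out.

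**Figure D3:**
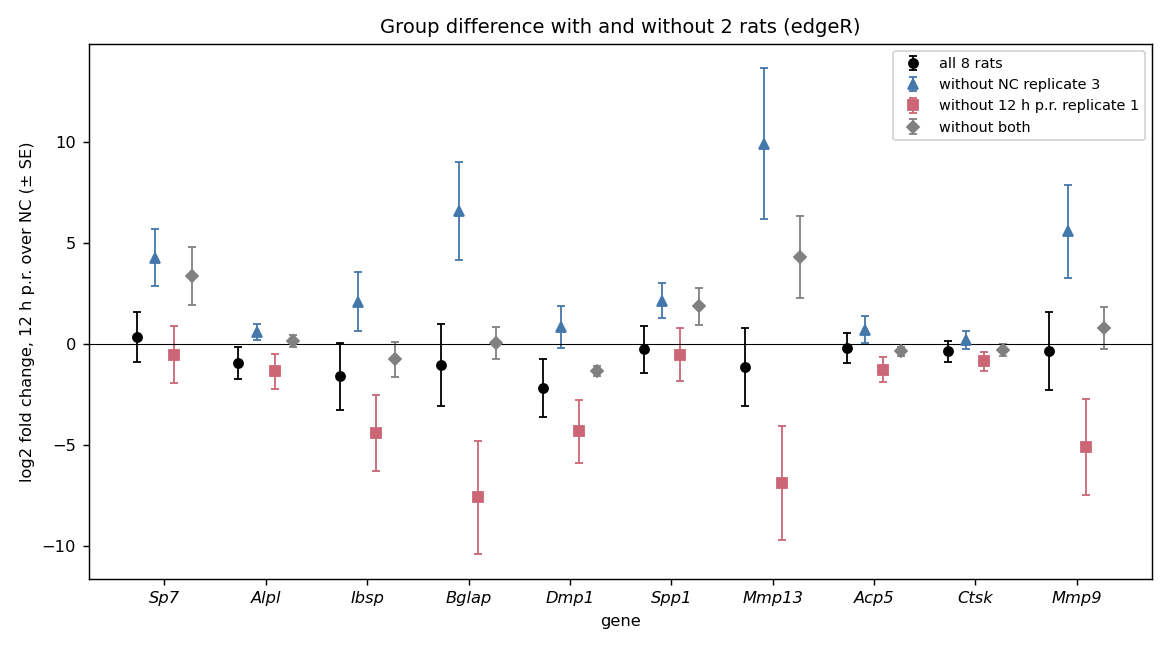
Fitted log2 fold change of 12 h p.r. over NC with its SE (edgeR) for each gene, with all 8 rats (black), without NC replicate 3 (blue), without 12 h p.r. replicate 1 (red), and without both (grey). The blue points lie above 0 and the red points below 0 for all 10 genes, and *Ctsk* moves least, from 0.20 to -0.86.

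Without both rats, 3 running and 3 NC rats were left, and 2 of the 10 genes had an unadjusted edgeR p value under 0.05, *Dmp1* and, below the filter, *Sp7*, while 7.63% of all genes tested had one in this fit. *Dmp1* was at 3.95, 4.28, and 4.32 CPM in these running rats and at 7.37, 12.3, and 12.2 CPM in the NC rats, and did not overlap. Its log2 fold change in the edgeR fit across all genes was -1.34 (SE 0.26, edgeR adjusted p = 0.554), and its p before adjustment in this edgeR fit was 0.00122. *Dmp1* was the only one of the 10 genes without overlap between the groups of these 6 rats, where 14.1% of all genes tested did not overlap, and an exact permutation test of 3 rats against 3 cannot reach the 0.05 threshold. *Spp1* was at 1.87 on the log2 scale (SE 0.92, edgeR adjusted p = 0.671) in this fit, with 318 and 493 CPM in 2 running rats, 21.7 CPM in replicate 3, and 55.7 to 109 CPM in the NC rats. *Ctsk* and *Acp5* were at -0.29 (SE 0.29) and -0.36 (SE 0.23), and *Alpl* and *Bglap* at 0.16 (SE 0.29) and 0.05 (SE 0.81). Reads of *Sp7* in these 6 rats numbered 13, of which 12 were in 2 running rats.

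The 2 high rats did not hold the 10 genes in the same proportions. The CPM of NC replicate 3 was 4.87 times that of 12 h p.r. replicate 1 for *Dmp1* (95% interval, 4.43 to 5.36), 3.15 times for *Ibsp* (2.86 to 3.48), and 3.12 times for *Alpl* (2.52 to 3.89). For *Spp1*, *Mmp13*, and *Bglap* the ratios were 2.73 (2.64 to 2.83), 2.19 (1.96 to 2.45), and 2.03 (1.90 to 2.17). The osteoclast genes were nearer to equal, at 1.38 for *Ctsk* (1.32 to 1.43), 1.27 for *Mmp9* (1.16 to 1.40), and 1.08 for *Acp5* (1.00 to 1.16), below every osteoblast and osteocyte gene but *Sp7*. *Sp7* had a ratio of 1.13, with an interval from 0.600 to 2.21 that its few reads do not narrow. These intervals are exact binomial intervals on the reads of 2 libraries, cover counting error only, and say nothing about other rats. The ratios are of whole levels. The level in the other rats, which was 114 to 272 CPM for *Ctsk*, 19.2 to 43.8 CPM for *Acp5*, and 21.7 to 493 CPM for *Spp1*, was not subtracted.

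**Figure D4:**
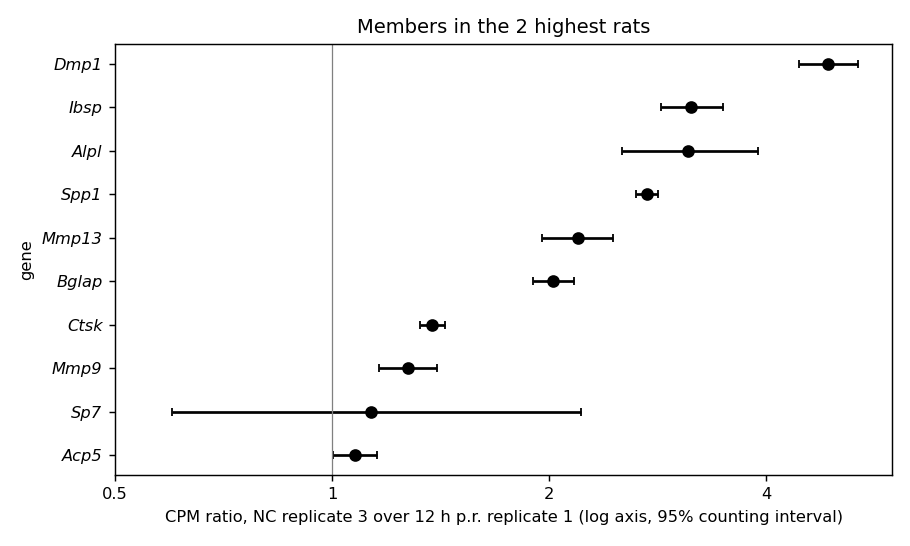
Ratio of CPM in NC replicate 3 over 12 h p.r. replicate 1 for each gene, on a log axis with 95% counting intervals. *Dmp1*, at 4.87, is at the top, and the osteoclast genes *Ctsk*, *Mmp9*, and *Acp5* lie between 1.08 and 1.38.

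Other genes of bone were followed through lists of related genes. Of 16 other genes of osteoblasts and osteocytes, 10 passed the filter, 0 of which had an adjusted or an unadjusted edgeR p value under 0.05, with a median log2 fold change of -0.10. The 3 with the highest level were *Tnfrsf11b*, osteoprotegerin, the decoy receptor that restrains osteoclast formation (log2 fold change 0.66, SE 0.57), *Fam20c*, the kinase of secreted matrix proteins (-0.05, SE 0.20), and *Phospho1*, a phosphatase of mineralization (1.28, SE 0.85). *Phospho1* was highest in 12 h p.r. replicate 3, at 177 CPM against 11.05 to 38.5 CPM elsewhere, the rat with the most muscle RNA, and the part of muscle in this value was not tested. For 10 of the 16 genes, NC replicate 3 and 12 h p.r. replicate 1 were the 2 highest rats. The summed level of the list was 400 CPM in NC replicate 3 and 151 to 302 CPM in the others. In 12 h p.r. replicate 1 it was 253 CPM, the lowest of the running rats.

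Of 14 other osteoclast genes, 8 passed the filter, again with 0 at an adjusted or unadjusted edgeR p value under 0.05 and a median log2 fold change of 0.01. The 3 most abundant, *Nfatc1*, the transcription factor of osteoclast formation, *Tcirg1*, a subunit of the proton pump, and *Clcn7*, the chloride-proton exchanger that works with it, had log2 fold changes of 0.10 (SE 0.09), 0.27 (SE 0.16), and -0.06 (SE 0.11). These 3 genes are used by many other cells, and *Nfatc1* ranged only from 36.1 to 47.0 CPM. In 8 of the 14 genes the same 2 rats were the highest pair, among them *Atp6v0d2*, a pump subunit of osteoclasts, at 4.14 and 5.06 CPM in these rats and at most 0.790 CPM in the others. Of 8 genes that control mineral deposition, 6 were tested, and *Slc20a1*, a phosphate importer, had a log2 fold change of -0.59 (SE 0.22) with an unadjusted edgeR p of 0.0260 and an adjusted p of 0.477. The list's median was -0.08, and *Mgp*, the matrix Gla protein that inhibits calcification, was at -0.32 (SE 0.22), *Enpp1* and *Ankh*, which supply the mineral inhibitor pyrophosphate, at 0.07 and 0.08 (SE 0.17 each).

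Markers of other cells that the dissected tissue could hold were compared in the same way. Of 12 cartilage genes, 8 were tested with 0 at an unadjusted p value under 0.05 (median log2 fold change -0.32), and 5 had the same 2 highest rats. Their summed level was 1329 CPM in NC replicate 3 and 872 CPM in 12 h p.r. replicate 1 (185 to 675 CPM in the remaining 6), and *Col2a1*, the main cartilage collagen gene, was at 594 and 167 CPM (1.79 to 10.8 CPM in the remaining 6). *Col11a1*, at 292 and 305 CPM in these rats and 89.3 to 252 CPM in the others, and *Col11a2*, at 218 and 264 CPM and 75.3 to 310 CPM, were well expressed in all 8. Of 4 genes of hypertrophic cartilage only *Mef2c*, which muscle also uses, was tested (log2 fold change -0.03), and the other 3 had the same 2 highest rats, with *Col10a1* at 53.6 CPM in NC replicate 3, 4.4003 CPM in 12 h p.r. replicate 1, and at most 0.425 CPM in the others. The part of cartilage RNA in the results for the 10 genes was not tested.

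The 7 macrophage markers, led by *Lyz2*, *Csf1r*, and *Mrc1*, did not follow the 10 genes, since their summed level was 983 CPM in the high running rat and 1823 CPM in the high NC rat, within the range of 532 to 3615 CPM of the remaining 6 (median log2 fold change -0.39, 0 at an unadjusted edgeR p under 0.05). Markers of bone marrow were low in every rat. The 9 granulocyte genes, led by *Mpo*, summed to 13.5 CPM in the high running rat, 7.17 CPM in the high NC rat, and 6.46 to 15.0 CPM elsewhere. *Mpo* was at 4.08 to 12.7 CPM, *S100a9* at 0.790 to 1.95 CPM, and *S100a8* at 0.119 to 1.28 CPM over the 8 rats, while *Elane*, *Prtn3*, and *Ctsg*, the lowest of the list, had 4, 1, and 0 reads in all. The 5 matched B cell genes, among them *Cd79b* and *Vpreb1*, summed to at most 1.12 CPM. Red cell genes, mainly *Hbb*, with *Alas2* (2.07 to 14.03 CPM) and *Slc4a1* (0.123 to 1.61 CPM) next, summed to 190.4 CPM in the high running rat, 250.8 CPM in the high NC rat, and between 208 and 1081 CPM in the others. Of the marrow and red cell lists, 2 granulocyte, 0 B cell, and 2 red cell genes were tested, with 0 at an unadjusted p under 0.05 and median log2 fold changes of 0.23 for the granulocyte and -0.82 for the red cell genes.

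Tenocyte markers had 8 genes tested, with a median log2 fold change of 0.47. The 3 most abundant, *Col1a1*, *Fmod*, and *Col1a2*, were at -0.11 (SE 0.36), -0.06 (SE 0.33), and 0.39 (SE 0.31), and 3 others were higher at an unadjusted edgeR p under 0.05, *Scx*, *Mkx*, and *Thbs4* (edgeR adjusted p values of 0.452, 0.452, and 0.506). The 8 skeletal muscle genes tested, led by *Acta1*, *Mylpf*, and *Myh1*, had a median of 1.45 and 0 genes at an unadjusted p under 0.05, and the 4 endothelial genes a median of 0.19. Of the latter, *Cdh5*, *Tie1*, and *Tek* were at 0.29 (SE 0.15), 0.31 (SE 0.11), and -0.12 (SE 0.11), with *Tie1* alone at an unadjusted p under 0.05 (edgeR adjusted p = 0.452). In 0 of the macrophage, marrow, red cell, muscle, and endothelial genes was the highest pair that of the 10 genes, and in 1 of the tenocyte genes, *Col1a1* (37602 CPM in the running rat and 30606 CPM in the NC rat).

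**Figure D5:**
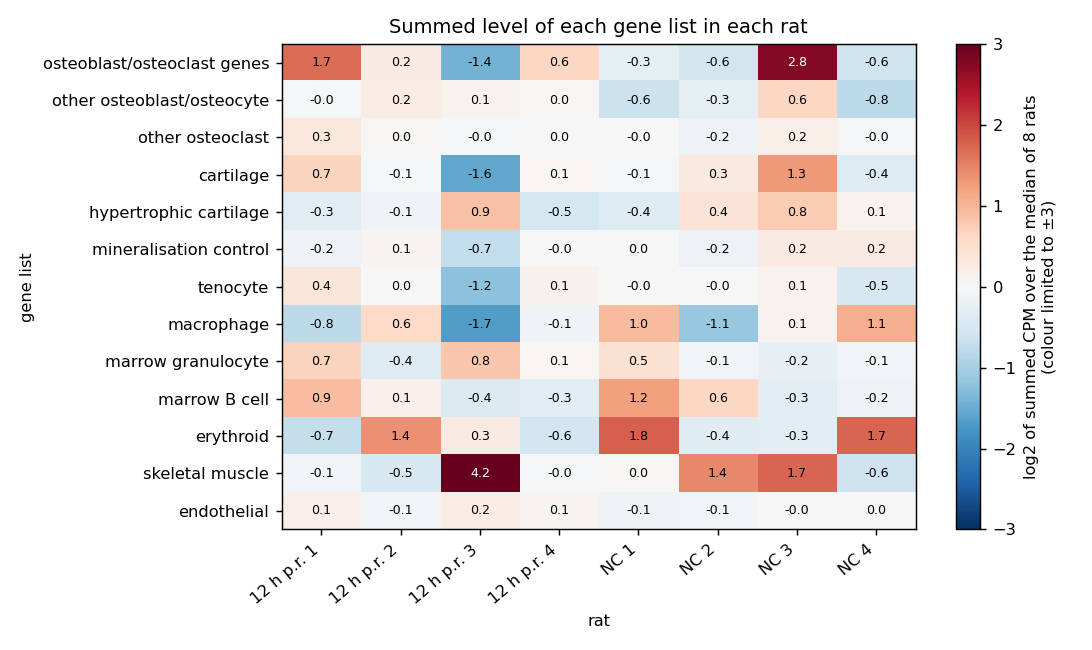
Summed CPM of each gene list in each rat, as log2 of its ratio to the median of the 8 rats (colour limited to 3 in either direction). The 10 genes described here are at 1.68 in 12 h p.r. replicate 1 and 2.75 in NC replicate 3. The summed cartilage level, of which *Col2a1* is a large part in NC replicate 3, is at 0.67 and 1.28 in these rats. Macrophage genes are at -0.78 and 0.11, and red cell genes at -0.71 and -0.31. In the same order of rats, other osteoblast and osteocyte genes are at -0.04 and 0.62, and other osteoclast genes at 0.34 and 0.20. Hypertrophic cartilage genes are at -0.33 and 0.75, and skeletal muscle genes at -0.08 and 1.74.

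To find the genes whose pattern over the 8 rats was most like that of the bone genes, the profile of log2(CPM + 0.5) minus its mean was compared between genes by the root mean square distance, among 13959 other genes with a mean of at least 10 counts. Nearest to the mean profile of *Bglap*, *Ibsp*, *Sp7*, and *Dmp1* were *Col2a1* (distance 0.57), *Col10a1* (0.77), *Mepe* (0.92), *Phex* (0.98), LOC100912008 (1.08), *Col9a3* (1.09), *Atp6v0d2* (1.10), *Wnt16* (1.12), *Col9a1* (1.18), and *Scube1* (1.27), where the median distance of all genes was 2.17. The genes that made this profile were at 0.60 (*Dmp1*), 0.66 (*Ibsp*), 1.37 (*Sp7*), and 1.37 (*Bglap*) from it. *Sp7* and *Bglap* were thus farther from it than all 10 neighbours. For comparison, *Mmp9* was at 0.91 and *Mmp13* at 1.05 from the same profile. *Mepe*, a matrix protein of osteocytes, was at 39.4 CPM in NC replicate 3, 7.12 CPM in 12 h p.r. replicate 1, and at most 1.43 CPM in the others, and *Phex*, an osteocyte endopeptidase, at 23.0, 8.28, and at most 3.13 CPM.

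The 10 genes nearest to the mean profile of *Acp5*, *Ctsk*, and *Mmp9* were LOC100912008 (distance 0.50), *Atp6v0d2* (0.52), *Col9a1* (0.56), *Col9a3* (0.57), *Phex* (0.73), *Wnt16* (0.75), *Galnt3* (0.77), *Scube1* (0.78), *Runx2* (0.78), and LOC108348083 (0.80), with a median distance of all genes of 1.53. Of these 10, 7 were also among the 10 nearest to the osteoblast profile. The genes that made the osteoclast profile were at 0.61 (*Acp5*), 0.89 (*Ctsk*), and 1.41 (*Mmp9*) from it. The remaining genes described here ran from 0.71 (*Alpl*) to 1.96 (*Bglap*). *Runx2*, the transcription factor at the head of the osteoblast program, was at 11.03 CPM in NC replicate 3, 5.69 CPM in 12 h p.r. replicate 1, and 1.19 to 2.89 CPM in the others. *Col10a1* and *Mepe*, near the osteoblast profile, reached the mean of 10 counts only through the high rats. Their closeness to that profile was thus fixed in part by the filter. The profiles share the same 8 libraries and are dominated by 2 of them, so the distances describe these rats and no more.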

How the data were processed

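Right Achilles tendon tissue of 4 rats at 12 h p.r. and 4 NC rats was sequenced as stranded polyadenylate mRNA libraries, 1 per rat. The authors aligned the reads to Rnor_6.0 with Hisat2 2.1.0, set for a reverse-stranded library, and the deposited counts per Ensembl gene were made with featureCounts 1.6.3 without normalization. The strand and multiple-match options of featureCounts are not given in the sources used here. The deposited FPKM are these counts divided by gene length and a factor per rat, which was checked to equal the DESeq2 size factor. The table of the authors' own comparison holds log2 fold changes and p-values and was not used.

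From the counts, genes were filtered with filterByExpr, scaled by TMM, and tested with the quasi-likelihood F test of edgeR 4.0.16, adjusting p-values across the tested genes by Benjamini-Hochberg. The standard error came from the F statistic. Single genes were also tested by exact permutation of log2(CPM + 0.5). DESeq2 1.42.0, limma 3.58.1 on FPKM, other scalings and filters, a replicate block, and fits without single rats were alternatives. Scripts ran in R 4.3.3 and Python 3.11.15.

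The 10 genes, the 12 marker lists, and the alternative without 2 rats were chosen with earlier results of these data known. Of each list the 3 genes with the highest mean CPM were named (1 of them is not reported here), with any gene past the adjusted threshold, and the 10 genes nearest to each profile; other named genes were chosen after their values were seen. Symbols not matched included *Ahsg*, *Cd79a*, *Hba-a1*, *Myh4*, *Myh2*, and *Pecam1*, and *Hba-a2* had several identifiers and was left out. Total counts ran from 7350509 to 12951397, so a gene at 0 reads in a rat may have been at up to 0.395 CPM. The p-values test the group difference against the spread between these 8 rats, and those of edgeR, DESeq2, and limma also draw on the spread of other genes. Protein sequences and gene coordinates on Rnor_6.0 were not used here.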

Additional observations from a re-analysis of the deposited data

Results flagged for a closer look

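In each group of 4 rats, a rat was sought whose gap to the nearest of the others exceeded Dixon's 95% critical value for the gap's share of the whole range, on log2(CPM + 0.5). Of 20 groups (10 genes in 2 groups), 8 held such a rat, and although such a value is met by chance in about 1 in 20 groups, that share is no yardstick here: the genes were chosen with this pattern known, they share the same rats, and several groups hold rats at 0 reads, whose values are fixed at -1 by the pseudocount. In the NC group, replicate 3 was the high rat for *Bglap* (8.23, next -0.01), *Sp7* (1.51, next -0.77), *Dmp1* (8.26, next 3.67), and *Mmp13* (6.80, with the other 3 rats at -1, which is 0 reads). In the running group, replicate 1 was the high rat for *Bglap* (7.21, next 0.37), *Dmp1* (5.99, next 2.27), and *Mmp9* (6.44, next 0.70). The last value was a low one, *Spp1* in 12 h p.r. replicate 3 (4.47, next 8.32), the rat that also had the most muscle and the least tenocyte RNA. No explanation of these values was tested.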

How the results depend on the processing

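Among the 10 genes, 0 were called (adjusted p under 0.05) with all 8 rats and under each alternative run, with DESeq2 giving a p for 2 of them. Over all genes, edgeR called 1 gene, DESeq2 95, limma on log2(FPKM + 1) 0 and on log2(FPKM + 0.1) 3, the fit without NC replicate 3 and 12 h p.r. replicate 1 called 0, and the 8 edgeR fits without 1 rat called 0 to 0 (879 to 1580 genes at an unadjusted p under 0.05). The replicate numbers do not pair the rats, since deviations of same-numbered rats correlated between -0.20 and 0.13, and not every rat correlated best with its own number. With the number as a replicate block, 0 genes were called and 974 had an unadjusted p under 0.05, against 1326 without it, and the log2 fold change turned to 1.03 for *Mmp13*, 0.52 for *Mmp9*, and 1.51 for *Spp1*. Without NC replicate 3 and 12 h p.r. replicate 1 together, it turned to 0.046 for *Bglap*, 4.29 for *Mmp13* (against NC rats at 0 reads, so with no meaning as a size), 0.80 for *Mmp9*, 0.16 for *Alpl*, and 1.87 for *Spp1*. With limma, it turned to 0.28 for *Mmp13*, 0.34 for *Mmp9*, and 0.42 for *Spp1* on log2(FPKM + 0.1), and to 0.42 for *Spp1* on log2(FPKM + 1). With a pseudocount of 1, the difference in mean log2 CPM of *Mmp13* was -0.064, with 0.08 at a pseudocount of 0.5. In the fits without 1 rat, the log2 fold change ran from -7.60 to 6.58 for *Bglap*, -4.41 to 2.09 for *Ibsp*, -0.55 to 4.26 for *Sp7*, -4.34 to 0.83 for *Dmp1*, -6.87 to 9.92 for *Mmp13*, -5.08 to 5.57 for *Mmp9*, -0.86 to 0.20 for *Ctsk*, -1.28 to 0.71 for *Acp5*, -1.36 to 0.59 for *Alpl*, and -0.63 to 2.13 for *Spp1*. The ends are the fits without NC replicate 3 or 12 h p.r. replicate 1, except the low end of *Spp1* (without NC replicate 4). Leaving out other rats also turned values near 0: *Mmp9* to between 0.0396 and 0.0509 without running replicate 2, 3, or 4, *Acp5* to 0.0841 without running replicate 2 and 0.00143 without running replicate 4, *Spp1* to 0.13 without running replicate 3, and *Sp7* to -0.0624, -0.00101, and -0.00794 without NC replicate 1, 2, or 4. *Sp7* has 60 reads in all, so its values rest on little data.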

Other observations

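Some genes of the lists that were too low to be tested had reads mainly in NC replicate 3 and 12 h p.r. replicate 1, and they are named after their values were seen. *Sost*, sclerostin, a Wnt inhibitor secreted by osteocytes, had 56 reads, at 4.08 CPM in NC replicate 3, 0.259 CPM in 12 h p.r. replicate 1, and 0 in the other 6 rats. *Panx3*, a channel gene of osteoblasts and hypertrophic chondrocytes, had 45 reads, at 2.04 CPM in NC replicate 3, 2.33 CPM in 12 h p.r. replicate 1, and 0 in the others. *Ocstamp*, a gene of osteoclast fusion, had 11 reads, at 0.378 CPM in NC replicate 3, 0.777 CPM in 12 h p.r. replicate 1, and 0 in the others. Some other untested genes of the same lists did not have this pattern. *Calcr*, of the osteoclast list, had 17 reads and was highest in 12 h p.r. replicate 3, at 0.833 CPM. It was at 0.227 CPM in NC replicate 3 and 0.129 CPM in 12 h p.r. replicate 1. *Fgf23* had 3 reads, with 0 in both of these rats, and *Dcstamp* and *Omd* had 0 reads in all 8. *Tnfsf11*, which encodes the osteoclast differentiation factor RANKL, had only 3 reads in the 8 rats, while its decoy receptor gene *Tnfrsf11b* was at 20.5 to 191 CPM and lowest in 12 h p.r. replicate 3.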
